A study of Mus musculus with 6 samples.

Results

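The genes described here are 32 genes of the endoplasmic reticulum (ER): stress sensors, chaperones, disulfide isomerases, ER-associated degradation (ERAD) factors and translocon subunits. They were chosen by function, from a fixed list of symbols, with earlier results of these data known. All 32 were found by gene identifier among the 55414 identifiers of the count table. The libraries come from C2C12 cells, a mouse myoblast line that can differentiate into myotubes, labelled wild type in genotype. Of the 6 libraries, 3 came from cells given a control siRNA (siRNA-NC, here siControl 1 to 3) and 3 from cells given an siRNA against Usf2 (siRNA-USF2, here siUsf2 1 to 3), both delivered with lipofectamine 3000. Usf2 encodes a transcription factor that binds E-box sequences, and the series asks how its knockdown affects gene expression. No time after transfection or cell passage is given in the labels used here, and nothing says whether replicates were separate cultures, so p-values measure only the spread between these libraries, which may be technical.

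Secreted and membrane proteins are translocated into the ER, folded there with the help of chaperones and isomerases, and returned to the cytosol for proteasomal degradation when folding fails. When unfolded proteins build up, the sensors IRE1, PERK and ATF6 start the unfolded protein response: IRE1 splices Xbp1 mRNA, PERK slows translation and favours synthesis of ATF4, and cleaved ATF6 enters the nucleus. XBP1 and ATF6 raise chaperone and ERAD genes through ER stress elements in their promoters. In muscle this response accompanies differentiation of myoblasts. Gene counts do not separate spliced from unspliced Xbp1.

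The library labelled siUsf2 3 stood apart from the other 5 and is shown apart. It held 3414565 counts against 14790997 to 17715250, its share of counts on pseudogenes was 0.974% against 14% to 15.3%, and its correlation with the others over genes (log2(CPM + 1), a description, since genes are no replicates) was 0.914 to 0.917, against 0.994 to 0.997 among the others. CPM is the count of a gene scaled by the total of its library. Usf2 stood at 26.2, 31.2 and 23.0 CPM in siControl 1 to 3 and at 17.1 and 15.3 CPM in siUsf2 1 and 2, but at 30.8 CPM in the library labelled siUsf2 3, which goes against its label. Usf2 was lower in siUsf2 1 and 2 (log2 fold change -0.74, standard error 0.14, with an adjusted p of 6.43e-04 from edgeR), and with all 6 libraries it did not pass the test (-0.40, standard error 0.28, with an adjusted p of 0.702 from edgeR). The paralog Usf1 stood at -0.25 in the 5-library comparison (standard error 0.13, with an adjusted p of 0.234 from edgeR). Both genes have pseudogene copies. With the counts of its copy added, Usf2 held 32.7, 40.7 and 27.3 CPM in siControl 1 to 3 and 21.2 and 19.4 CPM in siUsf2 1 and 2. The library labelled siUsf2 3 stayed at 30.8 CPM, within the siControl range. Usf1 was then at -0.24 in the 5 libraries (edgeR adjusted p = 0.17). Of the 6 myoblast markers Myod1, Myf5, Cdh15, Des, Itga7 and Myog, all were present in each library, with a summed level of 2355 to 4145 CPM. Immune markers summed to 20.6 to 25.5 CPM, most of it Cd14 (18.5 to 23.4 CPM), and Adgre1 had 0 counts in every library. Endothelial markers summed to 1.28 to 4.69 CPM, most of it Tek (1.22 to 2.88 CPM). Adipocyte markers summed to 5.00 to 7.91 CPM, most of it Pparg (4.7 to 7.0 CPM).

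Most of the ER genes showed no change that passed the test. Comparing siUsf2 1 and 2 with the 3 siControl libraries (the 5-library comparison), edgeR called 2 of 32 members lower, Herpud1 and Dnajb11, and 0 higher (10 at an unadjusted p below 0.05). A call is an adjusted p below 0.05 over all 17217 genes tested, of which 6.4% were called lower and 4.97% higher, with 4290 at an unadjusted p below 0.05. The share of members called lower (2 of 32) was thus near that of all genes. The members' median log2 fold change was -0.05, against -0.01 for all genes tested. It was below 0 for 19 of the 32 members and for 51.2% of all genes tested. In siUsf2 1 and 2, 9 members lay below every siControl library, a pattern found in 19.5% of all genes tested, and 8 lay above every siControl library, as did 21.8% of all genes. With all 6 libraries, edgeR called 0 of the 31 members tested, either higher or lower (3 had an unadjusted p below 0.05), where 0.042% of 16662 genes were called lower and 0.0% higher. DESeq2 on those 6 libraries called 1 member, Herpud1, lower. The 5-library counts rested on single libraries: without siControl 3, edgeR called 5 members lower (also Derl1, Syvn1 and Vcp) and 3 higher (Hsp90b1, Dnajc3 and Edem1), and without siControl 1 it called 1 lower, Herpud1.

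Markers of differentiation moved with the groups. The summed level of Acta1, Myh3, Tnni1, Mymk and Ckm, genes of differentiating muscle, was 2777 to 3190 CPM in siControl, 561 and 616 CPM in siUsf2 1 and 2 and 1167 CPM in the library labelled siUsf2 3. All 5 of these genes were called lower in the 5 libraries by edgeR. So were 5 of the 6 genes listed as myoblast markers, unevenly: Myog was at a log2 fold change of -1.77, and Myod1, Des, Itga7 and Cdh15 at -0.29, -0.35, -0.45 and -0.75. Myf5 was called higher, at 0.37. The fibroblast markers Pdgfra, Col1a1, Dpt, Thy1 and Ly6a summed to 591 to 624 CPM, 804 and 754 CPM, and 1371 CPM, with 2 of 4 tested called higher. The part of either in the levels of Herpud1, Dnajb11 and the other genes described here was not tested. In these bulk libraries a smaller share of differentiating cells and less RNA per cell cannot be told apart.

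The clearest change was in Herpud1, a membrane protein that organises the ERAD complex. It lies on chromosome 8 at 94386438 to 94395377 (GRCm38, plus strand). Its level was 226, 235 and 231 CPM in siControl 1 to 3, and 143 and 156 CPM in siUsf2 1 and 2. The library labelled siUsf2 3 held 186 CPM (95% Poisson interval 172 to 201, counting error only), so all 3 libraries labelled siUsf2 lay below every siControl library. That library, whose Usf2 level goes against its label, lay below every siControl library for 42.8% of all genes tested and above for 38.5%. Its agreement with siUsf2 1 and 2 thus says little, for Herpud1 and for the genes below. The share of all genes with such agreement was not counted. Herpud1 fell from 231 ± 4.62 CPM (SD, n = 3) to 149 ± 9.23 CPM (SD, n = 2), a log2 fold change of -0.64 (standard error 0.09, with an adjusted p of 4.1e-06 from edgeR). With all 6 libraries its log2 fold change was -0.55 (standard error 0.10, with an adjusted p of 0.15 from edgeR), which did not pass.

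Dnajb11, an ER luminal J-domain cochaperone of the HSP70 chaperone BiP, lies on chromosome 16 at 22857845 to 22879634 (plus strand). It held 80.1, 78.5 and 78.6 CPM in siControl 1 to 3, and 66.6 and 60.1 CPM in siUsf2 1 and 2, so these groups did not overlap. The library labelled siUsf2 3 held 107 CPM (95% Poisson interval 95.9 to 118), above every other library. In the 5 libraries Dnajb11 fell from 79.1 ± 0.903 to 63.4 ± 4.64 CPM (SD, n = 3 and n = 2), a log2 fold change of -0.33 (standard error 0.09, with an adjusted p of 0.0193 from edgeR). The call ended without siControl 1 (edgeR adjusted p = 0.0811), without siUsf2 1 (edgeR adjusted p = 0.0858) and without siUsf2 2 (edgeR adjusted p = 0.267), and with all 6 libraries the log2 fold change was -0.07 (edgeR adjusted p = 0.924).

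**Figure D1:**
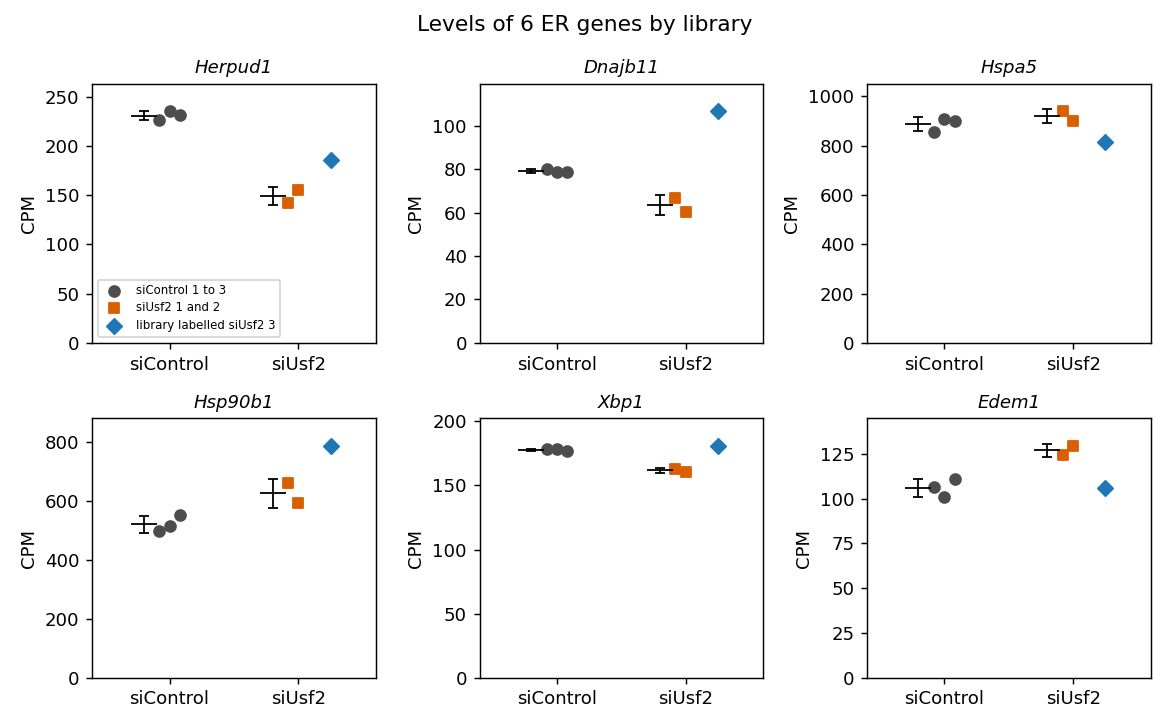
Level in scaled counts (CPM, vertical axes from 0) of Herpud1, Dnajb11, Hspa5, Hsp90b1, Xbp1 and Edem1 in each library; circles are siControl 1 to 3, squares siUsf2 1 and 2, diamonds the library labelled siUsf2 3, and black bars the mean and SD of siControl (n = 3) and of siUsf2 1 and 2 (n = 2). Herpud1 is at 143 and 156 CPM in siUsf2 1 and 2 against 226 to 235 CPM in siControl, while Hspa5 overlaps between the groups.

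Promoters are shown for the 2 members that fell and for Hspa5 and Sdf2l1. Among members with a promoter window, the 2 that fell were also the 2 with the compact form of the ER stress element. This pairing was seen after the calls were known. RefSeq promoter windows of GRCm38.p6, from 250 bases before to 50 bases after the start of transcription, were found for 27 of the 32 members (Atf6, Hyou1, Manf, Derl1 and Sec61a1 had none). In the windows below, given 5′ to 3′ on the gene's strand, capitals mark a match to the ER stress element (CCAAT, then any 9 bases, then CCACG), ER stress element II (ATTGG, then any base, then CCACG), the XBP1 and ATF6 site TGACGTG or the E-box CACGTG, searched on both strands. Herpud1 (chr8:94386179-94386478, plus strand) and Dnajb11 (chr16:22857595-22857894, plus strand) are the members that fell. Hspa5 (chr2:34771840-34772139, plus strand) carries the classical element and did not pass the test, and Sdf2l1 (chr16:17132334-17132633, minus strand) holds none of these sequences in this window.
Herpud1: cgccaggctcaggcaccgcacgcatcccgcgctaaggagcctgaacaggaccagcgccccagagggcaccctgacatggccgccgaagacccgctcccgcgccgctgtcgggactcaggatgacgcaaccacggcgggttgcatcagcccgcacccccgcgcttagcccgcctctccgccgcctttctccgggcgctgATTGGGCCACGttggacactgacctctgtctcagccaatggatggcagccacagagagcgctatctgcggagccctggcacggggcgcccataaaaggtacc
Dnajb11: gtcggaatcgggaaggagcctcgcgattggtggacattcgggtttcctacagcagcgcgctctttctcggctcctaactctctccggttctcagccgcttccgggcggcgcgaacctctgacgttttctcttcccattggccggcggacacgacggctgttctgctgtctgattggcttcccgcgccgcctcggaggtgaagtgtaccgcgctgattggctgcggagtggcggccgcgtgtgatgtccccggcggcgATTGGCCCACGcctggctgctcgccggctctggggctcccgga
Hspa5: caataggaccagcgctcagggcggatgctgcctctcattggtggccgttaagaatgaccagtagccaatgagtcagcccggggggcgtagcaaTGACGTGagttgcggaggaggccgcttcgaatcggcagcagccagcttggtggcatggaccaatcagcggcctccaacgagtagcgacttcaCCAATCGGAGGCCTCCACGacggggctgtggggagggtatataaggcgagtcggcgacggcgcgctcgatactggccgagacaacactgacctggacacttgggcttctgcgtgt
Sdf2l1: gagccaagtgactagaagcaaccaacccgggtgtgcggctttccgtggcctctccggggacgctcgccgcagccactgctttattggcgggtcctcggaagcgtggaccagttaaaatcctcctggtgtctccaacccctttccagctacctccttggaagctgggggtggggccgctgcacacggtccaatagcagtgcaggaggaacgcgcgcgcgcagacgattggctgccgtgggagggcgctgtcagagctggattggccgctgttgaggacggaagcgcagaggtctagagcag

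ER stress element II was found in 2 of the 27 members with a window, Herpud1 and Dnajb11, and in 0.0444% of all 27025 genes with a window. In Herpud1 the match ATTGGGCCACG begins 52 bases before the start, and in Dnajb11 the match ATTGGCCCACG begins 7 bases after it. Outside the members, 8 genes with this sequence were tested in the 5 libraries, of which 0 fell and 1 rose (edgeR), and their median was 0.05 on the log2 scale. The one that rose was Lgalsl, at a log2 fold change of 0.66 (standard error 0.16, with an adjusted p of 0.00748 from edgeR), a gene named after its value was seen. That the 2 called members hold it is a description of 2 genes, seen after the calls, and was not tested.

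The classical ER stress element was found in 9 members, Calr, Canx, Creld2, Derl3, Dnajc3, Hsp90b1, Hspa5, Pdia6 and Syvn1, and in 0.137% of all genes with a window. The members' share was 33.3%, and the element was first described in promoters of such chaperone genes. Of these 9 members, 0 were called in the 5 libraries (edgeR), with 3 at an unadjusted p below 0.05, and their median log2 fold change was -0.003. The E-box CACGTG, the sequence that USF factors bind, was found in 3 members, Calr, Derl3 and Dnajb9, or 11.1% of those with a window against 8.09% of all genes. Of these 3 members, 0 were called in the 5 libraries (edgeR). Outside the members, 1215 genes with the E-box were tested, of which 92 fell and 52 rose, with a median of -0.04. Over all genes tested, 6.4% fell and 4.97% rose. The site TGACGTG was found in Hspa5 and Vcp, or 7.41% against 2.22% of all genes. A match is a stretch of letters, not a measured binding site, and CCACG and CCAAT, which are parts of the longer elements, were each in 85.2% of the members' windows against 35.5% and 41.1% of all genes.

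**Figure D2:**
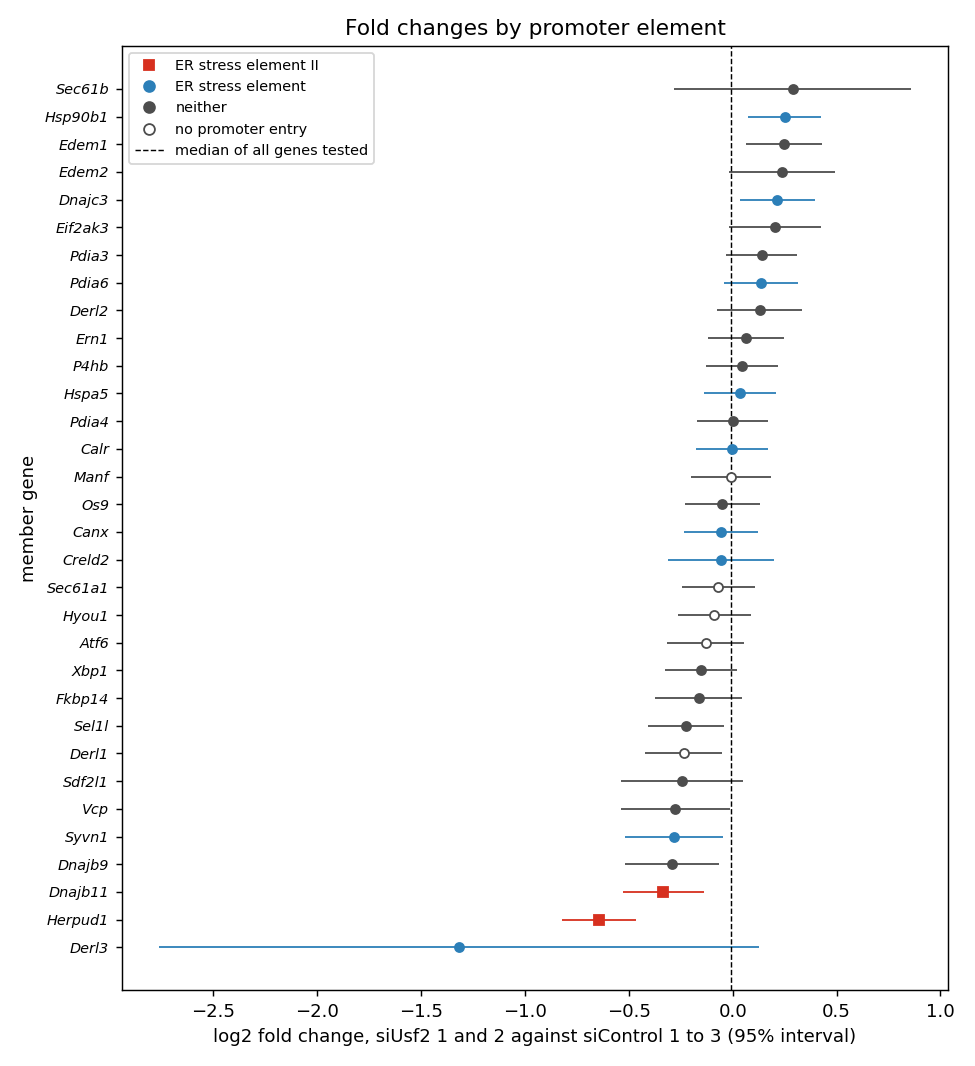
Log2 fold change of each member in siUsf2 1 and 2 against siControl 1 to 3 (horizontal axis, with 95% intervals), ordered by value; red squares hold ER stress element II in the promoter window, blue circles the classical element, filled grey circles neither, open circles have no promoter entry, and the dashed line is the median of all genes tested. Herpud1 and Dnajb11 are the members below the line that passed the test, while Derl3, lower still, has a wide interval from very low counts.

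The sensors and the transcription factor Xbp1 did not pass the test. Ern1, which encodes IRE1, held 84.4, 84.5 and 87.2 CPM in siControl 1 to 3, 92.8 and 87.5 CPM in siUsf2 1 and 2 and 84.3 CPM in the library labelled siUsf2 3. Ern1 had a 5-library log2 fold change of 0.06 (95% interval -0.12 to 0.25, edgeR adjusted p = 0.714). Eif2ak3, which encodes PERK, held 33.9, 35.4 and 33.9 CPM in siControl, 38.1 and 41.9 CPM in siUsf2 1 and 2 and 36.9 CPM in the library labelled siUsf2 3. All 3 libraries labelled siUsf2 lay above every siControl library for Eif2ak3, with a log2 fold change of 0.20 (interval -0.02 to 0.43, edgeR adjusted p = 0.249). Atf6, which encodes the sensor that is cleaved in the Golgi, overlapped between siControl (223, 213 and 253 CPM) and siUsf2 1 and 2 (206 and 218 CPM) and held 174 CPM in the library labelled siUsf2 3. Its log2 fold change was -0.13 (interval -0.31 to 0.06, edgeR adjusted p = 0.398). Xbp1 held 178, 178 and 177 CPM in siControl and 163 and 161 CPM in siUsf2 1 and 2, against 181 CPM in the library labelled siUsf2 3. The groups of 3 and 2 did not overlap for Xbp1, and the log2 fold change of -0.15 (interval -0.32 to 0.02) did not pass (edgeR adjusted p = 0.275).

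Among the 9 genes of the luminal HSP70 and HSP90 chaperones and their cofactors, 1 fell, Dnajb11 (6.4% of all genes tested fell), and 8 did not pass. Of the 9, 4 had an unadjusted p below 0.05 (edgeR), in both directions, as had 4290 of all 17217 genes tested. Hspa5, which encodes BiP, the chief HSP70 chaperone of the ER, held 857, 909 and 902 CPM in siControl, 939 and 902 CPM in siUsf2 1 and 2 and 814 CPM in the library labelled siUsf2 3. The groups overlapped, and the interval of the log2 fold change of 0.04 (-0.14 to 0.21, edgeR adjusted p = 0.836) lay within 1.5-fold in either direction. Hsp90b1, which encodes the HSP90 chaperone GRP94, held 495, 513 and 550 CPM in siControl, 658 and 590 CPM in siUsf2 1 and 2 and 784 CPM in the library labelled siUsf2 3. All 3 libraries labelled siUsf2 lay above every siControl library for Hsp90b1, but its log2 fold change of 0.25 (SE 0.09) missed the threshold (edgeR adjusted p = 0.0563). It passed as higher with upper-quartile normalization (edgeR adjusted p = 0.0273), with DESeq2 (adjusted p = 0.035) and without siControl 3 (edgeR adjusted p = 0.00342).

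The other cofactors of BiP lay on both sides of 0 and none was called. Dnajc3, a J-domain cochaperone that also inhibits PERK, held 97.3 to 104 CPM in siControl and 116 and 120 CPM in siUsf2 1 and 2 (log2 fold change 0.22, edgeR adjusted p = 0.115). Dnajb9, a J-domain cochaperone that represses IRE1, held 46.0 to 58.9 CPM and 45.0 and 40.9 CPM (-0.29, edgeR adjusted p = 0.087). Sdf2l1, a partner of Dnajb11 in the chaperone complex, held 17.9 to 19.1 CPM and 16.4 and 15.1 CPM (-0.24, edgeR adjusted p = 0.296). Hyou1, a large HSP70-like exchange factor for BiP, was at a log2 fold change of -0.09, and the secreted stress proteins Manf and Creld2 were at -0.01 and -0.06, all 3 with overlapping groups.

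No lectin chaperone or isomerase was called by edgeR (of 7 genes, 0 had an unadjusted p below 0.05). Calr and Canx, the calcium-binding lectins calreticulin and calnexin that hold glycoproteins for folding, were at log2 fold changes of -0.003 (interval -0.18 to 0.17) and -0.06 (interval -0.23 to 0.12). Pdia4, a disulfide isomerase, held 206, 207 and 206 CPM in siControl, 208 and 208 CPM in siUsf2 1 and 2 and 207 CPM in the library labelled siUsf2 3, a range narrower than that of any other isomerase. Pdia3, the isomerase that works with the lectins, Pdia6 and P4hb were at 0.14, 0.14 and 0.04, and Fkbp14, a prolyl isomerase that assists collagen folding, at -0.16. Calr and P4hb were the most abundant members per length, at 384 and 300.3 CPM per kilobase of annotated exons in siControl, followed by Hspa5 at 210.3 CPM per kilobase.

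Among the 10 ERAD genes, 1 fell, Herpud1, where 6.4% of all genes tested fell. Of the 10, 6 had an unadjusted p below 0.05 (edgeR), as had 4290 of all 17217 genes tested. These included Edem1, which was above 0. Log2 fold changes were below 0 for 7 of the 10, against 51.2% of all genes tested. The median was -0.23, against -0.01 for all genes tested. The ubiquitin ligase Syvn1 and its partner Sel1l were at -0.28 (edgeR adjusted p = 0.112) and -0.22 (edgeR adjusted p = 0.0994), and the channel protein Derl1 at -0.24 (edgeR adjusted p = 0.088). Syvn1 rested on single libraries: it was at -0.50 without siUsf2 1 (edgeR adjusted p = 0.0184), at -0.10 without siUsf2 2 (edgeR adjusted p = 0.782) and at -0.35 without siControl 3 (edgeR adjusted p = 0.0216). Sel1l was lower than every siControl library in all 3 libraries labelled siUsf2, at 166, 161 and 154 CPM against 177 to 202 CPM. Edem1, a mannosidase-like protein that hands glycoproteins to degradation, stood on the other side, with 106, 101 and 111 CPM in siControl and 125 and 129 CPM in siUsf2 1 and 2. Its log2 fold change of 0.25 did not pass (edgeR adjusted p = 0.0691), and the library labelled siUsf2 3 held 106 CPM, within the siControl range. Derl2 was at 0.13 and the lectin Os9 at -0.05. Edem2, a relative of Edem1, was at 0.24, a value that rested on siUsf2 1 (41.9 CPM, against 30.1 CPM in siUsf2 2 and 29.7 to 31.0 CPM in siControl) and was -0.01 without it. Derl3 was near the limit of detection, at 0.608 to 1.07 CPM in siControl and 0.190 and 0.469 CPM in siUsf2 1 and 2, with 2 counts in the library labelled siUsf2 3. In that library a count of 0 allows up to 0.879 CPM, so no difference in Derl3 was detectable there.

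The translocon subunits Sec61a1 and Sec61b were at log2 fold changes of -0.07 and 0.29, neither called. Over all roles, the 95% interval of the log2 fold change lay within 1.5-fold in either direction for 29 of the 32 members. The other 3 were Herpud1, whose interval was -0.82 to -0.47, and Derl3 and Sec61b, both of low counts.

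**Figure D3:**
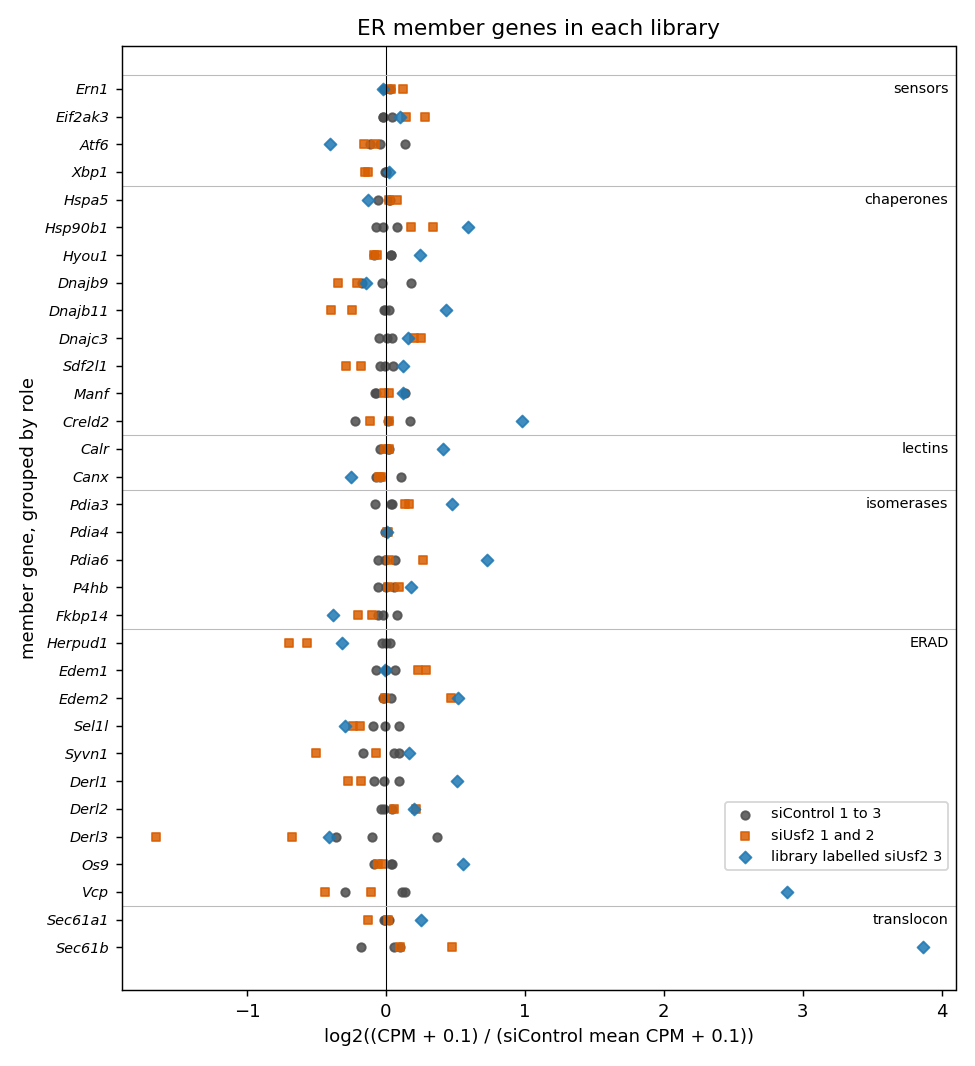
Level of each of the 32 members in each library, relative to the siControl mean (horizontal axis, log2 ratio of CPM with 0.1 added; ERAD, ER-associated degradation); circles are siControl 1 to 3, squares siUsf2 1 and 2, diamonds the library labelled siUsf2 3. Most circles and squares lie within 0.5 of 0, and the diamonds of Vcp and Sec61b lie at 2.88 and 3.87.

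The library labelled siUsf2 3 lay above every siControl library for 20 members, a position held by 38.5% of all genes tested, below for 8, against 42.8% of all genes, and within their range for 4. The summed level of the 32 members was 8448 CPM there, against 6945 to 7102 CPM in siControl and 7208 and 6978 CPM in siUsf2 1 and 2. The largest log2 ratios to the siControl mean (CPM + 0.1) were 3.87 for Sec61b, 2.88 for Vcp and 0.98 for Creld2, and the lowest were -0.41 for Derl3, -0.40 for Atf6 and -0.38 for Fkbp14. That of Derl3 rested on 2 counts. Their 95% Poisson interval of 0.0709 to 2.12 CPM held every siControl value, so its rank here has no weight. Of the 3 highest, Sec61b and Vcp have a processed pseudogene, a retrotransposed copy whose reads can be assigned to either locus. The summed level leaves such copies out. Those of Calr and Vcp held 345 to 369 and 750 to 854 CPM in siControl, against 0 and 90.5 CPM in the library labelled siUsf2 3. With pseudogene counts added to parent genes, that library lay above every siControl library for 17 members, below for 11 and within their range for 4. The share over all genes was not computed in that way.

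For 5 members reads of the gene and of a pseudogene copy may not have been told apart. Vcp, the ATPase that pulls ERAD substrates out of the membrane, held 58.5, 57.4 and 43.3 CPM in siControl, 39.2 and 49.2 CPM in siUsf2 1 and 2 and 392 CPM in the library labelled siUsf2 3. Its copy Vcp-rs, on chromosome X at 104345829 to 104348234, held 750.1, 812 and 854 CPM in siControl, 652 and 668 CPM in siUsf2 1 and 2 and 90.5 CPM in the library labelled siUsf2 3. Most Vcp-like reads thus sat on the pseudogene in 5 libraries and on the gene in the sixth. Summed, Vcp and Vcp-rs held 809, 869 and 897 CPM in siControl, 691 and 717 CPM in siUsf2 1 and 2 and 483 CPM in the library labelled siUsf2 3, so all 3 libraries labelled siUsf2 were below every siControl library. The summed level fell in the 5 libraries, by 0.30 on the log2 scale (standard error 0.08, with an adjusted p of 0.0134 from edgeR). With all 6 libraries the summed log2 fold change was -0.46 (edgeR adjusted p = 0.262), whereas that of the Vcp row alone was 1.52 (edgeR adjusted p = 0.667).

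With pseudogene counts added to parent genes throughout, edgeR called 5 members lower in the 5 libraries, Derl1, Dnajb11, Dnajb9, Herpud1 and Vcp, and 1 higher, Hsp90b1. Over all 15359 genes tested in that way, 7.56% were lower and 5.74% higher. Dnajb9 and its copy Gm6568 together held 64.6, 65.4 and 76.9 CPM in siControl, 54.8 and 54.2 CPM in siUsf2 1 and 2 and 47.2 CPM in the library labelled siUsf2 3. The 5-library log2 fold change of that sum was -0.36 (standard error 0.10, with an adjusted p of 0.0153 from edgeR). Derl1 and its copy Gm35638 together held 221, 229 and 207 CPM, 181 and 192 CPM and 195 CPM (-0.25, standard error 0.08, with an adjusted p of 0.0461 from edgeR). For both, the summed level lay below every siControl library in all 3 libraries labelled siUsf2, while the Derl1 row alone held 194 CPM in the library labelled siUsf2 3, above siControl. Calr with Calr-ps held 1444 to 1487 CPM in siControl and 1470 CPM in the library labelled siUsf2 3, against 1076 to 1123 and 1470 CPM for the Calr row alone. Sec61b remained high there after addition, at 49.5 CPM against 7.57 to 9.56 CPM in siControl.

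**Figure D4:**
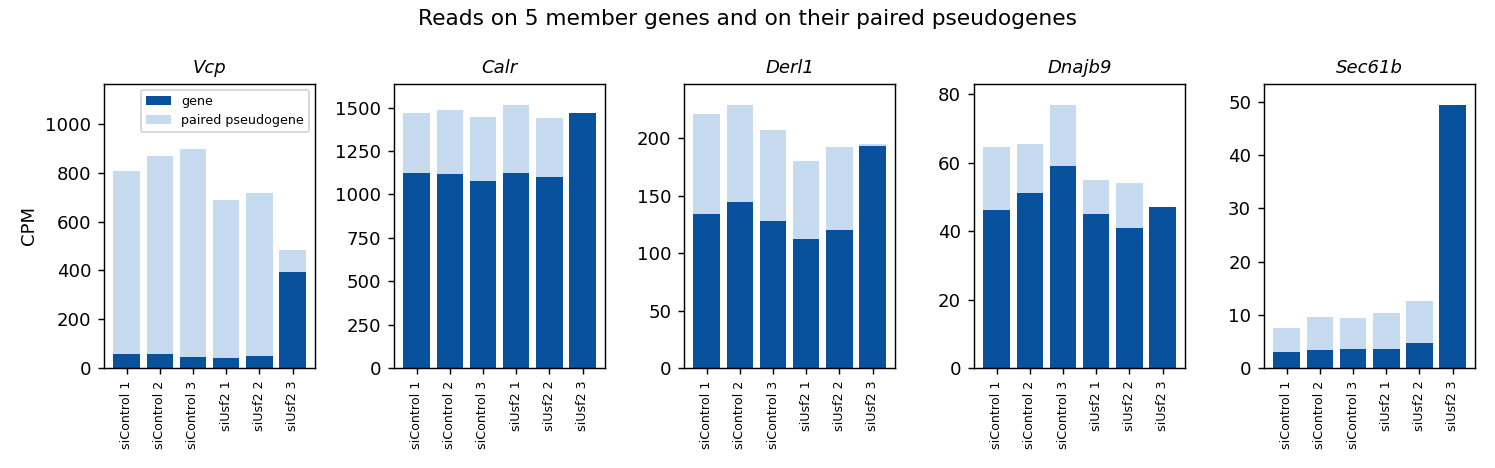
Scaled counts (CPM, vertical axes from 0) assigned to Vcp, Calr, Derl1, Dnajb9 and Sec61b (dark bars) and to their paired processed pseudogenes (light bars stacked on top) in each library. The light part of Vcp is 652 to 854 CPM in 5 libraries and 90.5 CPM in the library labelled siUsf2 3, and the whole Vcp bar is lower in every library labelled siUsf2 than in siControl.

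Exons of Syvn1 overlap those of Mrpl49 on the opposite strand, which held 25.9 to 33.8 CPM, and exons of Hsp90b1 overlap Gm15344 and 1810014B01Rik, which held 1.46 to 7.46 CPM. Exons of Derl2, Fkbp14, Manf and Pdia3 also overlap those of Mis12, Plekha8, Dcaf1 with Rbm15b, and Catsper2. Mis12 held 51.5 to 61.2 CPM and Rbm15b 76.7 to 94.3 CPM. Gm15344 and Rbm15b lie on the same strand as Hsp90b1 and Manf, so strand could not separate their reads. The other genes named lie on the opposite strand. Whether counting used strand is not given in the sources used here, so reads of those pairs may be mixed too. Herpud1 and Dnajb11 overlap no annotated exon of another gene.

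Another 99 genes in 7 lists were also chosen with earlier results of these data known. These 99 genes cover the rest of the pathway and, for comparison, heat shock proteins outside the ER. Of these, 3 rose and 10 fell in the 5 libraries by edgeR, where 4.97% of all genes tested rose and 6.4% fell. With all 6 libraries edgeR called 0 of the 99 in either direction, a limit on every gene named from these lists. DESeq2 on those 6 libraries called Ero1l higher (adjusted p = 0.00296) and Wfs1 lower (adjusted p = 0.00202). Of 11 genes of the PERK and ATF4 arm, edgeR called 5 lower and 0 higher in the 5-library comparison and 6 missed the threshold, their median being -0.33 on the log2 scale. Trib3, a pseudokinase induced by ATF4, fell from 32.9 ± 5.00 CPM (SD, n = 3) in siControl to 13.8 ± 0.977 CPM (SD, n = 2) in siUsf2 1 and 2, or by 1.26 on the log2 scale (standard error 0.14, with an adjusted p of 1.33e-07 from edgeR). Asns, asparagine synthetase, Chac1, a glutathione-degrading enzyme, and Ppp1r15a, the phosphatase subunit that reverses the PERK signal, were at -0.69 (SE 0.11), -0.70 (SE 0.14) and -0.45 (SE 0.11). Atf4 itself, named after its value was seen, was at -0.33 (standard error 0.09, with an adjusted p of 0.0209 from edgeR). Ddit3, which encodes CHOP, a factor of prolonged ER stress, stood at 0.32 and did not pass (edgeR adjusted p = 0.188), also named after its value was seen. Trib3 and Asns were called in each of the 14 alternatives run. Without siUsf2 1 the count of the 11 that fell was 2, with the calls of Chac1 (edgeR adjusted p = 0.088), Ppp1r15a (edgeR adjusted p = 0.142) and Atf4 (edgeR adjusted p = 0.455) ended. Without siControl 2 it was 3, with those of Ppp1r15a (edgeR adjusted p = 0.067) and Atf4 (edgeR adjusted p = 0.0956) ended, and without siControl 1 that of Atf4 ended (edgeR adjusted p = 0.0814). In the library labelled siUsf2 3, Trib3 was listed with 30.2 CPM, Asns with 121 CPM and Chac1 with 39.2 CPM, none below the siControl range, and Ppp1r15a at 33.1 CPM was below it. With all 6 libraries 0 of the 11 were called by edgeR (3 at an unadjusted p below 0.05; DESeq2 called 0).

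Of 23 other genes of ER folding and oxidation, 2 rose and 1 fell (4.97% and 6.4% of all genes tested). The other 20 did not pass, and the median was -0.02. The 2 that rose were the ER oxidases, which reoxidise the disulfide isomerases. Ero1l, also called Ero1a, held 62.7, 67.7 and 67.6 CPM in siControl, 87.2 and 91.7 CPM in siUsf2 1 and 2 and 86.7 CPM in the library labelled siUsf2 3. All 3 libraries labelled siUsf2 were above every siControl library for Ero1l (log2 fold change 0.43 in the 5 libraries, standard error 0.09, with an adjusted p of 0.00212 from edgeR), although the call ended without siUsf2 2 (edgeR adjusted p = 0.071). Ero1lb, also called Ero1b, was at 0.47 (standard error 0.15, with an adjusted p of 0.0398 from edgeR), a call that ended with DESeq2 (adjusted p = 0.0583) and without either siUsf2 library, siControl 1 or siControl 2 (edgeR adjusted p = 0.0963 to 0.289), and its level in the library labelled siUsf2 3 was 9.96 CPM, below siControl. The isomerase Pdia5 was at 0.47 (edgeR adjusted p = 0.0634). Cnpy2, a luminal saposin-like protein, fell by 0.34 on the log2 scale (standard error 0.10, with an adjusted p of 0.032 from edgeR), a call that ended with DESeq2 (adjusted p = 0.0568), with upper-quartile normalization (edgeR adjusted p = 0.0566) and without siControl 1, siControl 2 or either siUsf2 library (edgeR adjusted p = 0.0651 to 0.347). In the library labelled siUsf2 3, Cnpy2 was at 96.1 CPM, above the 55.5 to 68.5 CPM of siControl.

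Of 8 genes of sensor processing and related factors, 2 fell, where 6.4% of all genes tested fell. Wfs1, an ER membrane protein that restrains ATF6 signalling, held 90, 76.3 and 81.6 CPM in siControl, 54.2 and 60.3 CPM in siUsf2 1 and 2 and 61.8 CPM in the library labelled siUsf2 3. All 3 libraries labelled siUsf2 were below every siControl library for Wfs1 (log2 fold change -0.54 in the 5 libraries, standard error 0.10, with an adjusted p of 3.6e-04 from edgeR). Atf6b, the relative of Atf6, was at -0.44 (standard error 0.12, with an adjusted p of 0.013 from edgeR) and at 64.4 CPM in the library labelled siUsf2 3, above siControl; its call ended without siControl 2 (edgeR adjusted p = 0.107) and without either siUsf2 library (edgeR adjusted p = 0.0805 and 0.0832). None of 14 genes of glycan processing, 14 other degradation genes and 15 genes of translocation and signal peptide removal was called (edgeR; 5 of these 43 at an unadjusted p below 0.05), with medians of -0.03, -0.15 and -0.02. The other degradation gene of smallest p was Ube2g2, a ubiquitin-conjugating enzyme, at -0.32 (edgeR adjusted p = 0.0501). That of glycan processing was Mogs, at -0.37 (edgeR adjusted p = 0.0864), and that of translocation was Ssr3, at 0.18 (edgeR adjusted p = 0.169). Without siControl 3, Ube2g2, Mogs and Ssr3 were each called in these directions (edgeR adjusted p = 0.00235, 1.23e-04 and 0.0169).

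Of 14 cytosolic and mitochondrial heat shock proteins, which sit outside the ER pathway, 2 fell and 1 rose (6.4% and 4.97% of all genes tested), with a median of -0.02. Hsp90ab1 and the mitochondrial HSP70 Hspa9 were at log2 fold changes of -0.29 (standard error 0.09, with an adjusted p of 0.0273 from edgeR) and -0.27 (standard error 0.09, with an adjusted p of 0.0436 from edgeR), and the inducible Hspa1b was at 0.36 (standard error 0.11, with an adjusted p of 0.0291 from edgeR). The calls of Hsp90ab1 and Hspa9 ended without siControl 1, siControl 2 or either siUsf2 library (edgeR adjusted p = 0.0565 to 0.474 and 0.0638 to 0.559), that of Hspa9 also under other normalizations (edgeR adjusted p = 0.0523 to 0.0821), and that of Hspa1b without siControl 2 (edgeR adjusted p = 0.0824) or siUsf2 1 (edgeR adjusted p = 0.366). In the library labelled siUsf2 3 both rows went the other way, with Hsp90ab1 at 2482 CPM against 1115 to 1197 CPM in siControl and Hspa9 at 463 CPM against 184 to 197 CPM. Each has a paired pseudogene, and with its counts added Hsp90ab1 was at 2482 CPM there against 2289 to 2440 CPM in siControl and Hspa9 at 463 CPM against 604 to 648 CPM.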

How the data were processed

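The deposited table holds whole-number read counts per gene for 6 libraries. Per the submitters' processing notes, FastQC, Trimmomatic, HISAT2, featureCounts and DESeq2 were used with the build mm10, with versions, strand setting and treatment of reads that map to several places not given in the sources used here. Another deposited table repeated these counts as CPM and was not used.

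Identifiers were matched to GENCODE M21, where 52133 of 55414 matched. Counts were tested with edgeR 4.0.16 in R 4.3.3 (filterByExpr, TMM normalization, robust glmQLFit, glmQLFTest), adjusting p by Benjamini-Hochberg across every gene in the test. The 5-library comparison leaves out the library labelled siUsf2 3, and the 6-library comparison follows the labels. CPM uses the total of the gene counts, and fold changes come from the fits. A pseudogene was paired with a gene where minimap2 2.31 aligned it at 90% identity or more over at least 50% of its length and 150 matching bases. The script was tested on simulated data.

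The members and lists were chosen with earlier results of these data known. Full values are given for called members and for Hspa5, Xbp1, Ern1, Eif2ak3 and Atf6. Each other list is represented by up to 4 genes of smallest p in the 5 libraries, and genes named otherwise are marked. The 2 oxidase genes were matched by their older symbols Ero1l and Ero1lb. Alternatives were 3 other normalizations, DESeq2 1.42.0, limma-voom 3.58.1, 2 other filters, a replicate block, added pseudogene counts and leaving out each library. Protein sequences were not used here. Poisson intervals and floors cover counting error only. Intervals of fold changes come from the standard errors of the edgeR fits, which include the spread between libraries.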

Additional observations from a re-analysis of the deposited data

How the results depend on the processing

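In the 5 libraries, Herpud1 was called lower in each of the 14 alternatives (log2 fold change -0.72 to -0.57) and Dnajb11 in 11. The count of members called lower was 2 as reported, 5 with pseudogene counts added and 1 to 5 on leaving out each library (1 without siControl 1, 5 without siControl 3). The count called higher was 0 as reported, 1 by library size only, 2 with upper-quartile normalization, 1 with DESeq2, 1 with a filter of 1 CPM in 2 libraries, 1 with pseudogene counts added and 0 to 3 on leaving out each library (3 without siControl 3). Hsp90b1 was among those called higher in 7 alternatives. With all 6 libraries, 1 member was called lower with DESeq2, and 0 were called higher under any alternative. Leaving out the library labelled siUsf2 3 gives the 5-library comparison itself, with 2 lower, and leaving out any other library gave 0. The labels do not say that a replicate number marks a shared batch. Deviations of same-numbered libraries correlated at r = -0.07, -0.005 and -0.07, but deviations within siUsf2 mostly reflect the library labelled siUsf2 3, so whether the numbers pair the other libraries could not be decided. A replicate block gave 5 members lower and 3 higher in the 5 libraries, and 0 in either direction with all 6. Over all genes of the 5 libraries, 1102 fell and 855 rose as reported, 900 fell and 1124 rose with upper-quartile normalization, and 2270 fell and 1719 rose with the replicate block, while leaving out each library gave 519 to 1964 lower and 349 to 1596 higher. Over all genes with 6 libraries, 7 fell and 0 rose as reported, against 410 and 296 with DESeq2, 85 and 19 with limma-voom, 104 and 12 with no filter and 151 and 38 with pseudogene counts added. The causes of these shifts were not tested. The depth of the library labelled siUsf2 3 limits what it can show for Derl3.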
